A study of Rattus norvegicus with 24 samples.

Results

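The Krüppel-like factors described here are 6 genes, Klf2, Klf4, Klf5, Klf6, Klf9 and Klf10, of the 15273 genes in a transcript table from rat tibialis anterior muscle. They were taken by gene symbol, and each gene's value is the sum over its annotated transcripts, 7 of the 20027 in the table. RNA sequencing was performed on 24 muscles of 12 male Wistar rats. The left tibialis anterior was trained daily through an implanted pulse generator that stimulated its motor nerve, for 2, 10, 20 or 30 days, with 3 rats per duration. The right muscle of the same rat, which was not stimulated, was the contralateral control, so that each control came from an animal that carried the implant and trained the other leg. Muscles were collected 1 h after the last bout, and each trained value therefore holds both the response to that bout and the training before it. The training loaded the muscle by contraction against its own antagonists, and no sham-operated or untrained animals were used here.

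Krüppel-like factors are transcription factors that bind GC-rich and CACCC sequences through zinc fingers at their C terminus. Several are induced within minutes to hours by growth factors, stretch or flow, and they turn other genes on or off in fibroblasts, macrophages, vessel wall cells and muscle fibres. Klf2 and Klf4 are known for the response of endothelium to flow, Klf5 for growth of smooth muscle and for muscle differentiation, Klf6 for wound and fibrotic responses, Klf9 for induction by glucocorticoids and thyroid hormone, and Klf10 for rapid induction by TGF-beta.

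The deposited values are of the TPM type, in which transcript reads are divided by transcript length, and each sample sums to 634431. They can be compared between genes, but they hold no read depth, so the counting precision of a single value is unknown. Here each sample was divided by 1 factor, between 0.778 and 1.14, that sets the median transcript equal across samples, and the result is called the scaled value. Fold changes are on the log2(value + 1) scale, which understates the change of low genes. Calls come from limma over 11196 genes, with trained muscles set against the 12 controls together and p-values adjusted over all genes by Benjamini-Hochberg, at a threshold of 0.05. The 4 durations share these controls. Because each trained muscle has a partner in the same rat, a second fit used the animal as a block, and its value is given where it changes a call of the 6 factors. For lists of other genes, the counts from both fits are given.

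Of the muscle fibre markers, the 8 in the table summed to between 72101 and 86437 scaled units in the controls and to between 51070.1 and 90009 in the trained muscles, so the markers of the labelled tissue were abundant in every library. Mitochondrial transcripts took 23.4% to 43.9% of the total per sample, and control replicate 1 of 30 days stood at 43.7%.

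The RefSeq tables held a window before the start of Klf4, Klf5, Klf6 and Klf9. The 250 bases upstream of Klf6 and Klf5, the members with the largest increases, and of Klf9, which was lower in trained muscle, are shown 5′ to 3′ on the gene's strand. They lie in GRCr8 at chr17:69458479-69458728 on the minus strand, chr15:82471831-82472080 on the plus strand and chr1:230126396-230126645 on the plus strand. Capitals mark matches, on either strand, to the CArG box, TGACG (the core of a cyclic AMP response element), TGACTCA (an AP-1 site), GGGCGG (known as the GC box), CCACCC (a box that these factors bind), CACGTG (an E-box), TATAAA (known as the TATA box) or the MEF2 site.
Klf6: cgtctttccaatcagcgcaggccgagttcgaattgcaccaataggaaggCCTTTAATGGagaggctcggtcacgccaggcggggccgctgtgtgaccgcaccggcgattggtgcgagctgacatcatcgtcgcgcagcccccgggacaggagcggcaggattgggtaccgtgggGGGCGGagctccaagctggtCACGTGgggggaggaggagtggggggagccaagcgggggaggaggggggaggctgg
Klf5: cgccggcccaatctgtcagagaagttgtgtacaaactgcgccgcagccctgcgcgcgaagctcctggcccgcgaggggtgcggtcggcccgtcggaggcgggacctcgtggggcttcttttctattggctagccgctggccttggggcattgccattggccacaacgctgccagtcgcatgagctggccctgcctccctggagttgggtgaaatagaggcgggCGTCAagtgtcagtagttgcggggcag
Klf9: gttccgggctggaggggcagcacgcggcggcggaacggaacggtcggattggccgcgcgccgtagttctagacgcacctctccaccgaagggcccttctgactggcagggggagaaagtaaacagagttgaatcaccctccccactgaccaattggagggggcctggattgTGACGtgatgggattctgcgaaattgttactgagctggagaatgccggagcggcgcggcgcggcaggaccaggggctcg

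All 3 stretches were rich in G and C, at 67.2% in Klf6, 65.2% in Klf5 and 63.6% in Klf9, against a median of 51.2% over the 33469 windows. The Klf6 stretch held a CArG box, the site read by serum response factor, with its first base at -201 from the annotated start. This motif was present in 1.50% of all windows of this length. Klf6 also held 1 GC box at -76 and 1 E-box at -56, which occurred in 30.5% and 5.59% of windows. Klf5 and Klf9 each held 1 TGACG, at -27 and -79, a motif in 18.2% of windows. None of the 3 stretches held the AP-1 site, the CCACCC box, the TATA box or the MEF2 site, which were found in 4.05%, 26.1%, 12.9% and 2.96% of windows. These matches are descriptions of letters and not evidence of binding.

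In unstimulated muscle the 6 factors covered a wide range of levels. Klf9 was the most abundant, at 42.2 ± 6.05 scaled units (SD, n = 12), rank 1148 of 15273 genes. Klf10 followed at 9.68 ± 1.93 and Klf4 at 8.03 ± 2.74, and the ranges of these 2 overlapped. Klf6 stood at 4.13 ± 1.16 and Klf2 at 3.65 ± 1.58, again with overlapping ranges, and Klf5 was lowest at 1.39 ± 0.338, rank 9323. After 2 days of training the order had changed. Klf9 was still first at 33.1 ± 6.41 (n = 3), but Klf6 was second at 18.1 ± 5.08, rank 2462, ahead of Klf4 at 15.5 ± 2.23 and Klf10 at 12.6 ± 3.57. Among the 4 control groups by day, limma's F test called none of the 6 factors and 0.0625% of all genes (7 of 11196, with 1197 at an unadjusted p under 0.05). Klf9 had the lowest p of the 6 in that test, at 0.0324 before and 0.423 after adjustment.

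**Figure D1:**
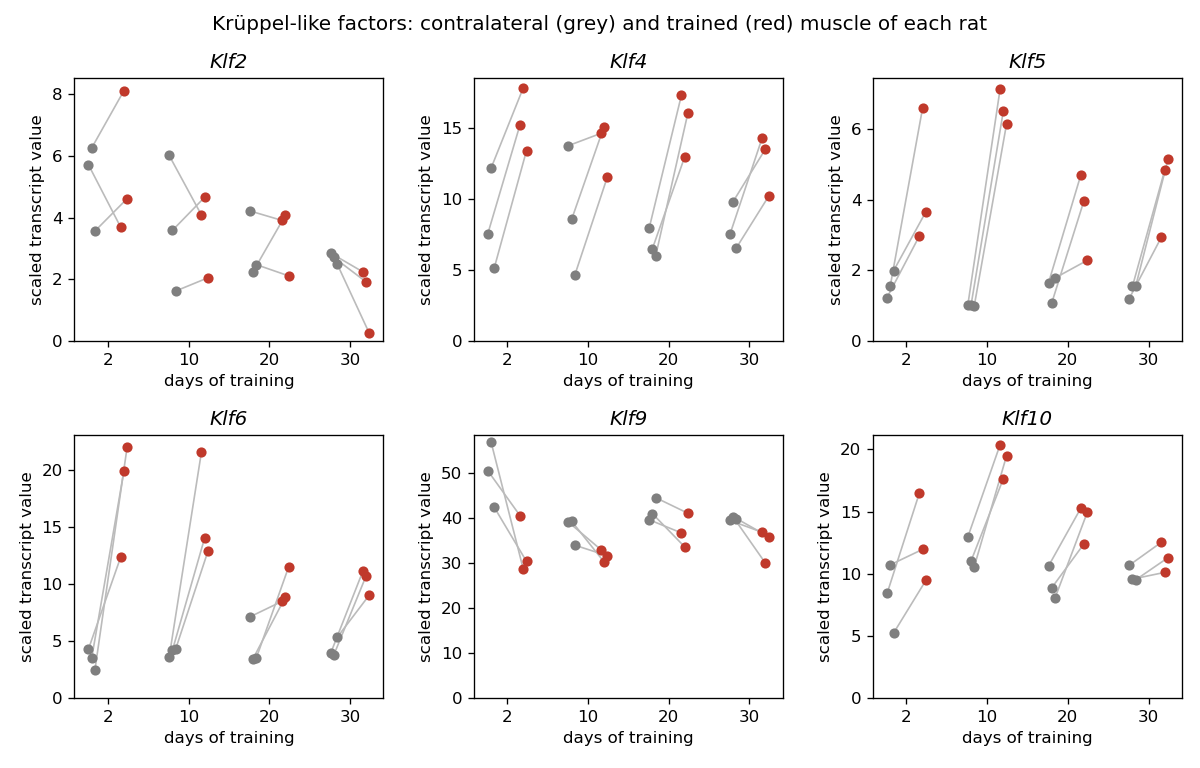
Scaled transcript value (vertical axes, from 0) of each factor against days of training, with contralateral muscles in grey, trained muscles in red and a line joining the 2 muscles of a rat. Lines rise in 12 of 12 rats for Klf4, Klf5, Klf6 and Klf10, descend in 12 of 12 for Klf9, and cross for Klf2, which was higher in the trained muscle of 5 rats.

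Trained against contralateral muscle, 4, 5, 4 and 4 of the 6 factors passed the test as training lengthened from 2 to 10, 20 and 30 days. Higher in trained muscle were 3 at 2 days, where 15.4% of all genes tested were called higher, and 4 at 10 days, where the share was 15.6%. At 20 days 4 were higher against 11.7% of all genes, and at 30 days 3 against 11.1%. Klf4, Klf5 and Klf6 were called higher at each of the 4 durations, and Klf10 joined them at 10 and 20 days. Called lower were Klf9 at 2 days, against 13.5% of all genes, Klf9 at 10 days, against 13.3%, none of the 6 at 20 days, against 9.64%, and Klf2 at 30 days, against 9.46%. The median log2 fold change of the 6 was 0.71, 0.85, 0.72 and 0.43 from 2 to 30 days, beside -0.01, -0.03, -0.03 and -0.01 over all genes tested. With the animal as a block, 5, 4, 4 and 3 of the 6 passed, where 21.6%, 20.1%, 17.4% and 12.3% of all genes passed in either direction.

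Within rats, Klf4, Klf5, Klf6 and Klf10 were higher in the trained than in the own contralateral muscle in 12 of 12 pairs, a pattern that 8.45% of genes showed. Klf9 was lower in 12 of 12 pairs, as were 6.57% of genes. Klf2 was higher in 5 of 12.

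Klf6 (rn6, chr17:67887939-67945038, minus strand) rose most at the earliest duration. This factor is known as an early gene of tissue injury that activates TGF-beta and matrix genes. The 12 controls lay between 2.48 and 7.12, with a median of 3.85. Trained muscles reached 12.4, 19.9 and 22.04 at 2 days and 21.6, 14.1 and 12.9 at 10 days. They stood at 8.48, 8.86 and 11.5 at 20 days and at 11.1, 10.7 and 9.03 at 30 days. Every one of the 12 trained muscles thus lay above every control. The log2 fold change was 1.89 ± 0.184 at 2 days (SE, adjusted p = 4.35e-08), 1.74 at 10 days (adjusted p = 1.37e-07), 1.07 at 20 days (adjusted p = 0.000150) and 1.16 at 30 days (adjusted p = 7.33e-05). The ratio of trained to own contralateral muscle ran from 1.19 to 8.87, and the smallest came from the rat of 20 days whose control was the highest of all controls.

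Klf6 in trained muscle was lower at the later durations, against the pooled spread of all groups. Trained muscles of 20 days lay 0.82 below those of 2 days on the log2 scale (SE 0.233, adjusted p = 0.0297), and those of 30 days lay 0.73 below (adjusted p = 0.0362). In these comparisons 8.05% and 15.0% of all genes were called. The difference did not pass with the animal as a block, where it was -1.15 (adjusted p = 0.131) and -1.0 (adjusted p = 0.164). Left out 1 at a time, trained replicates 2 and 3 of 2 days and 1 and 2 of 20 days each ended the call of 20 against 2 days. Replicates 2 and 3 of 2 days and each of the 3 of 30 days ended that of 30 against 2 days. Between neighbouring durations no Klf6 difference passed.

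Klf6 is annotated with 2 protein-coding transcripts on the same strand, Klf6-201 over the whole span and the shorter Klf6-202 (chr17:67899033-67904675) inside it. How reads shared by them were assigned in the authors' quantification is not stated in the paper, so each value is uncertain. Klf6-202 held a median of 91.0% of the Klf6 value in controls (85.4% to 95.9%) and 90.9% in trained muscles (83.2% to 94.9%). Klf6-201 went from 0.389 ± 0.122 in controls (n = 12) to 1.96 ± 0.286 at 2 days and 0.69 ± 0.186 at 30 days (n = 3 each). Its log2 fold change over the controls was 1.09 at 2 days (adjusted p = 5.66e-08 in the fit over transcripts) and 0.28 at 30 days (adjusted p = 0.0658). Klf6-202 went from 3.74 ± 1.14 to 16.2 ± 4.84 and 9.60 ± 1.07, with log2 fold changes of 1.84 (adjusted p = 4.83e-07) and 1.19 (adjusted p = 0.000236). Trained muscles of 30 days were lower than those of 2 days for Klf6-201, by a log2 difference of -0.81 (adjusted p = 0.000396), whereas the difference of -0.66 for Klf6-202 did not pass (adjusted p = 0.10). The difference between the 2 transcripts was not tested. Klf6-201 lay under the filter minimum of 1 in every control (at most 0.586) and every trained muscle of 30 days (at most 0.904). It passed the filter only through trained muscles of shorter durations, where it was high. Its adjusted p-values therefore come from a transcript admitted by its own rise, and its values are a description.

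**Figure D2:**
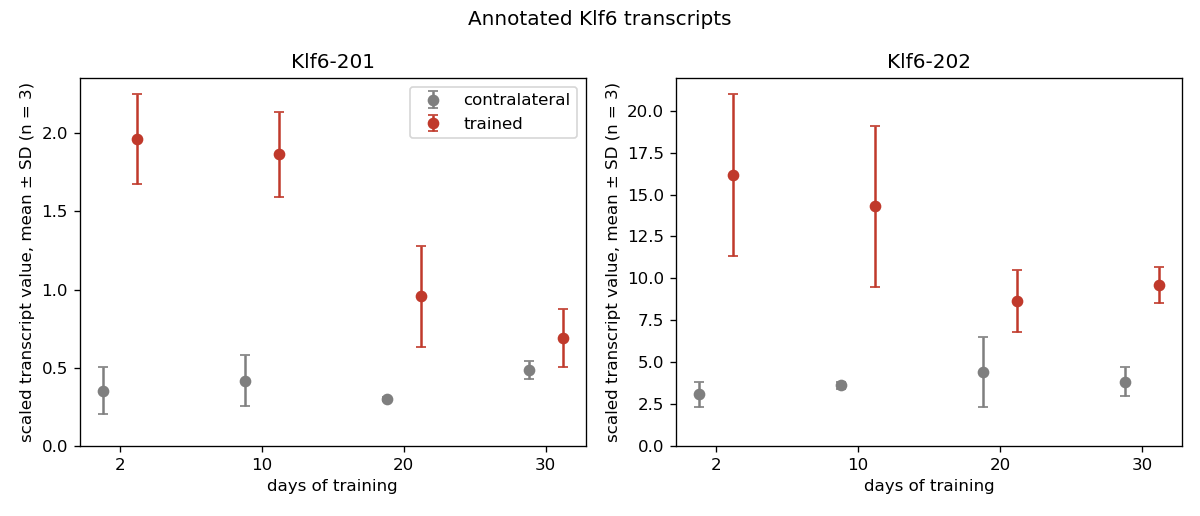
Scaled value (mean ± SD, n = 3 per point, axes from 0) of the 2 annotated Klf6 transcripts against days of training, contralateral in grey and trained in red. Both stood higher in trained muscle at 2 days, and at 30 days Klf6-201 was at 0.69 ± 0.186 against 0.486 ± 0.0566 in the same rats' controls while Klf6-202 was at 9.60 ± 1.07 against 3.85 ± 0.879.

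Klf5 (chr15:83707735-83722922, plus strand) was the lowest of the factors in control muscle and rose at each duration. It is best known for driving proliferation and remodelling in vessel wall and epithelium. Controls lay between 0.996 and 1.99. Trained muscles stood at 2.98, 6.60 and 3.66 at 2 days and at 7.13, 6.51 and 6.15 at 10 days. They stood at 4.70, 3.98 and 2.29 at 20 days and at 2.95, 4.84 and 5.14 at 30 days, and none of the 12 overlapped any control. The log2 fold change was 1.14 ± 0.174 at 2 days (SE, adjusted p = 2.58e-05), 1.68 at 10 days (adjusted p = 9.69e-08), 0.94 at 20 days (adjusted p = 0.000313) and 1.14 at 30 days (adjusted p = 4.76e-05). The 3 rats of 10 days had ratios of 7.03, 6.41 and 6.17 to the own contralateral muscle, and across the other rats the ratio ran from 1.28 to 4.21. The trained groups of 10 and 20 days differed by -0.74 on the log2 scale without passing (adjusted p = 0.192), in a comparison with 0.170% of all genes called.

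Klf4 (chr5:72283313-72287670, minus strand) rose by less than 1 on the log2 scale at each duration. It is a quiescence and inflammation factor of endothelium, smooth muscle and macrophages. Trained muscles held 15.3, 17.9 and 13.4 after 2 days of training and 14.6, 15.1 and 11.5 after 10 days. The 3 muscles of 20 days held 17.4, 12.99 and 16.1, and those of 30 days 14.3, 13.5 and 10.2. Controls ran from 4.68 to 13.8, and 2, 2, 2 and 1 of the 3 trained muscles lay above all of them as training went from 2 to 30 days. The log2 fold change was 0.92 ± 0.206 at 2 days (SE, adjusted p = 0.00155), 0.76 at 10 days (adjusted p = 0.00707), 0.91 at 20 days (adjusted p = 0.00214) and 0.64 at 30 days (adjusted p = 0.0277). The call at 30 days was lost on the values as deposited (0.44, adjusted p = 0.0943), and without trained replicate 1 (0.56, adjusted p = 0.132) or 2 (0.59, adjusted p = 0.120) of that duration. Against the controls of the same day alone, the rises at 10 days (0.66, adjusted p = 0.102) and 30 days (0.61, adjusted p = 0.170) did not pass. No pair of trained groups differed for Klf4, with log2 differences between -0.27 and 0.16.

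Klf10 (chr7:77156006-77162149, minus strand), the TGF-beta inducible early gene that restrains growth, was highest at 10 days. Trained muscles stood at 16.5, 11.96 and 9.46 at 2 days and at 20.4, 17.6 and 19.5 at 10 days. At 20 days they stood at 15.3, 12.4 and 14.9, and at 30 days at 12.5, 10.1 and 11.3. Controls ran from 5.22 to 12.9 with a median of 10.1, so that the trained muscles of 10 days lay above all controls and those of 30 days within their range. Klf10 rose at 10 days by 0.94 ± 0.163 (SE, adjusted p = 0.000103) and at 20 days by 0.53 (adjusted p = 0.0217). The values at 2 days, 0.35 (adjusted p = 0.116), and at 30 days, 0.23 (adjusted p = 0.356), did not pass. Within rats, with the animal as a block, Klf10 rose at 2 days too (0.60, adjusted p = 0.00849), and the controls of those rats averaged 8.12 ± 2.76 against 11.5 ± 1.26 at 10 days. The blocked values at 10 and 20 days were 0.69 and 0.58. In that fit 10 days exceeded 2 days by 0.09, which did not pass (adjusted p = 0.923). The call at 20 days was lost without trained replicate 1 (adjusted p = 0.105) or 3 (adjusted p = 0.0874) of that duration.

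The trained groups of 30 and 10 days differed for Klf10 by -0.71 on the log2 scale, just short of the threshold (adjusted p = 0.0509). In that comparison 3.94% of all genes were called, and none of the 6 factors. On the values as deposited it was -1.03 (adjusted p = 0.00375), and Klf2, Klf5 and Klf6 passed as well, while the median of all genes lay at -0.27. With the animal as a block the Klf10 difference was -0.52 and did not pass (adjusted p = 0.339). Neither 10 against 2 days, with 1.93% of genes called, nor 30 against 20 days, with 0.0357%, called any of the 6.

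Klf9 (chr1:240908483-240933199, plus strand) was lower in the trained muscle of every rat. It is a repressor that responds to glucocorticoids and follows the daily rhythm in many tissues. Trained muscles held 40.5, 28.6 and 30.3 after 2 days of training and 33.0, 30.2 and 31.6 after 10 days. Those of 20 days held 36.6, 33.5 and 41.0, and those of 30 days 36.8, 29.9 and 35.8. Controls ran from 33.9 to 56.9, and the 3 trained muscles of 10 days lay below all of them. Klf9 fell at 2 days, with a log2 fold change of -0.34 ± 0.120 (SE, adjusted p = 0.0331), and at 10 days, with -0.40 (adjusted p = 0.0146). At 20 days it was -0.17 (adjusted p = 0.331) and at 30 days -0.29 (adjusted p = 0.0888). The ratio to the own contralateral muscle ran from 0.503 to 0.933.

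The day on which the Klf9 difference passed depended on the controls and the scaling. With the animal as a block it was -0.58 at 2 days (adjusted p = 0.00673) and -0.23 at 10 days (adjusted p = 0.239). The controls of 2 days, at 50.5, 56.9 and 42.3, stood above the mean of the 12 controls in every rat. On the values as deposited the fall passed at 30 days (-0.51, adjusted p = 0.0109) and not at 2 days (-0.23, adjusted p = 0.251) or 10 days (-0.28, adjusted p = 0.174), with the median of all genes at -0.18, 0.07 and 0.07. The fall at 2 days also did not pass without trained replicate 2 or 3, nor that at 10 days without trained replicate 2.

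Klf2 (chr16:19223087-19225038, minus strand), the shear stress factor of endothelium, did not move in one direction. Controls ran from 1.62 to 6.26. Trained muscles held 3.69, 8.12 and 4.62 after 2 days of training and 4.09, 4.67 and 2.05 after 10 days. Those of 20 days held 3.91, 4.08 and 2.12, and those of 30 days 2.24, 1.92 and 0.25. The last of these was the 1 trained muscle below all controls, at a value under the filter minimum of 1. Against the pooled controls Klf2 fell at 30 days, by 0.96 on the log2 scale (SE 0.298, adjusted p = 0.0238). This call was lost without that muscle, replicate 3 (-0.52, adjusted p = 0.305), and with the animal as a block (-0.69, adjusted p = 0.0910). The log2 fold change was 0.49, 0.01 and -0.05 at 2, 10 and 20 days (adjusted p = 0.223, 0.988 and 0.929).

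Trained muscles of 30 days held less Klf2 than those of 2 days, with a log2 difference of -1.45 (SE 0.377, adjusted p = 0.0108), a call lost without trained replicate 2 of 2 days (-1.17) or 3 of 30 days (-1.02). The contralateral muscles held 5.18 ± 1.43 at 2 days and 2.69 ± 0.175 at 30 days (n = 3 each), and Klf2 did not pass the test among the control groups (adjusted p = 0.569). Against the own contralateral muscle the difference between the 2 durations was -0.73 and did not pass (adjusted p = 0.280).

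**Figure D3:**
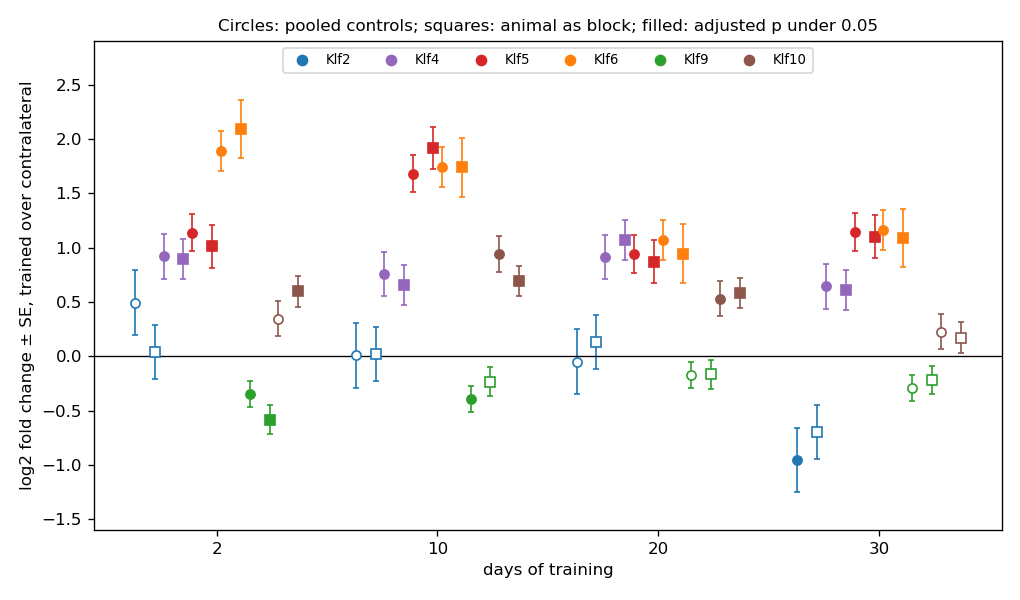
Log2 fold change ± SE of each factor against days of training, from the fit against 12 pooled controls (circles) and from the fit with the animal as a block (squares), filled where the adjusted p was under 0.05. Klf4, Klf5 and Klf6 are filled at all 4 durations in both fits, whereas Klf2, Klf9 and Klf10 change fill between the fits.

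The rest of the KLF and SP family was measured in the same muscles. The table held 14 others, of which 10 passed the filter, and Klf1, Klf8, Klf12 and Klf14 stayed below it. Of the 10, 2 rose and 1 fell at 2 days, 1 rose and 1 fell at 10 days, 2 rose and 2 fell at 20 days, and 1 rose and 1 fell at 30 days. With the animal as a block 1, 1, 2 and 1 rose and 1, 1, 0 and 0 fell. Their median log2 fold change was -0.08, -0.09, -0.04 and -0.02 over the 4 durations. Over all genes tested, 15.4%, 15.6%, 11.7% and 11.1% were called higher and 13.5%, 13.3%, 9.64% and 9.46% lower against the pooled controls. The counts of this family are not read as a response beyond those shares.

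Klf3, a repressor known from fat and blood cells, rose at each duration, from 2.85 ± 0.599 in controls to 4.62 ± 1.06, 4.80 ± 0.703, 5.21 ± 0.434 and 4.79 ± 1.08. Its log2 fold change was largest at 20 days, 0.71 (adjusted p = 0.000788). Klf16 rose at 2 days by 0.44 (adjusted p = 0.0217) and at 20 days by 0.59 (adjusted p = 0.00332), and the first was lost with the animal as a block (adjusted p = 0.0886). Klf15, which controls amino acid and lipid use in muscle and responds to glucocorticoids, stood at 10.4 ± 3.20 in controls and at 6.62 ± 1.42, 5.14 ± 0.925, 6.58 ± 0.215 and 5.20 ± 1.05 in trained muscle. It fell at each duration against the pooled controls, with log2 fold changes of -0.55, -0.86, -0.55 and -0.85. With the animal as a block it passed at 2 days (-0.77, adjusted p = 0.0431) and 10 days (-0.83, adjusted p = 0.0315) and not at 20 days (adjusted p = 0.155) or 30 days (adjusted p = 0.107). Klf13 fell at 20 days by 0.51 (adjusted p = 0.0360), also lost with the block (adjusted p = 0.147), at values under 1 scaled unit on average. Every trained muscle lay under the filter minimum of 1 for Klf13 (at most 0.704), and it passed the filter only through controls, where it was higher. Its place among the 10 was thus set by the difference that is counted. Klf7, Klf11 and Sp1 to Sp4 did not pass at any duration.

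**Figure D4:**
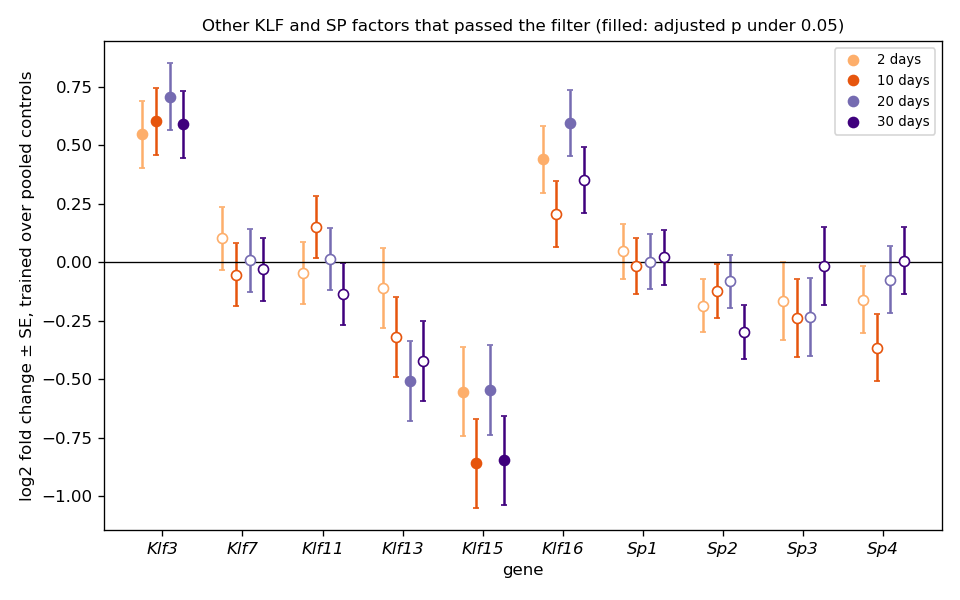
Log2 fold change ± SE over 12 pooled controls of the 10 other KLF and SP genes that passed the filter, with 1 point per duration, filled where the adjusted p was under 0.05. Klf3 lies above and Klf15 below 0 with filled points at all 4 durations, and the Sp points are open.

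Other genes around these factors were read from lists of their known inputs and partners. Beside the counts below, for lists and cell type markers alike, stand the same shares of all genes. They ran from 11.1% to 15.6% higher and from 9.46% to 13.5% lower against the pooled controls. Of the 18 immediate early transcription factors tested, which switch on within an hour of a stimulus, 17, 18, 16 and 12 rose at 2, 10, 20 and 30 days and none fell. With the block 16, 17, 16 and 13 rose and none fell. Their median log2 fold change was 2.37, 2.05, 1.91 and 1.46, above that of the 6 Krüppel-like factors at each duration. Atf3 went from 5.89 ± 3.82 in controls to 344.5 ± 165 at 10 days, Egr1 from 4.28 ± 1.54 to 139.8 ± 36.2 at 2 days and Fos from 10.4 ± 6.42 to 202.0 ± 68.5 at 2 days. Nr4a3 was highest at 20 days, at 68.6 ± 8.66 against 2.38 ± 1.65 in controls. Fosl1, Egr2, Egr3 and Nr4a2 lay under the filter minimum of 1 in every control and passed it only through trained muscles. Their place among the 18 was thus set by the rise that is counted, and Fosl2 stayed below the filter. Icam1, Adgre1 and the adipocyte markers Plin1 and Cidec, in lists below, also passed only through trained muscles.

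Of 14 genes of the TGF-beta pathway and its early targets, 5, 5, 4 and 4 rose over the 4 durations, and 0, 1, 1 and 1 fell. The block gave 5, 5, 4 and 3 and the same counts of falls. The target Ccn2, a matrix-associated growth factor, was among them, with a log2 fold change of 1.73 at 10 days (adjusted p = 6.78e-05). Tgfb1, the ligand, rose by 1.20 at 10 days (adjusted p = 1.49e-06), and Tgif1, a repressor of the pathway, by 1.41 (adjusted p = 4.03e-08). The value of Tgif1 at 10 days was 6.62 ± 0.586 against 1.88 ± 0.333 in controls.

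Of 16 genes of the glucocorticoid receptor and its targets, a list that also holds Klf15, 4, 3, 2 and 2 rose and 2, 3, 3 and 3 fell. With the block 3, 2, 2 and 2 rose and 3, 6, 2 and 2 fell. Cebpd, a transcription factor, fell at 30 days by 1.67 (adjusted p = 0.00340). Angptl4, a lipase inhibitor, fell at 2 days by 1.20 (adjusted p = 0.00217), a call lost with the animal as a block (adjusted p = 0.0834). Against the pooled controls Angptl4 also passed at 30 days (-0.84, adjusted p = 0.0327). With the block it passed at 10 days (-0.89, adjusted p = 0.0054), 20 days (-0.75, adjusted p = 0.0172) and 30 days (-0.87, adjusted p = 0.0108). Hsd11b1, the enzyme that regenerates active glucocorticoid, rose at 10 days by 1.57 (adjusted p = 1.05e-07), and the metallothionein Mt1 at 2 days by 1.53 (adjusted p = 0.0140). The list's median was -0.22, -0.16, -0.25 and -0.24.

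Of the 6 genes of the MEKK3-MEK5-ERK5 cascade and its MEF2 factors, which act upstream of Klf2 and Klf4 in endothelium, Mef2c rose at 2 and 10 days, by 0.64 at 10 days (adjusted p = 1.97e-05). Map3k3, the first kinase of the cascade, fell at each duration, by 0.36 at 30 days (adjusted p = 0.00264), and with the animal as a block it passed at 2 days alone (-0.41, adjusted p = 0.0146). Map2k5, Mapk7, Mef2a and Mef2d passed at no duration in either fit. Thus 1, 1, 0 and 0 of the 6 rose and 1 fell at each duration. The block gave the same rises and 1, 0, 0 and 0 falls. The cells in which Mef2c rose were not tested. Of 7 endothelial flow-response genes tested, 2, 3, 3 and 1 rose and none fell against the pooled controls. With the block 2, 3, 4 and 1 rose and 1 fell at 2 days, Angpt2, a vessel-destabilising ligand (-0.65, adjusted p = 0.00545), named after its value was seen. Called against the pooled controls were the adhesion molecules Vcam1 (1.08 at 10 days, adjusted p = 6.85e-07) and Icam1 (0.58 at 10 days, adjusted p = 0.00329), the anticoagulant receptor Thbd (0.51 at 20 days, adjusted p = 0.0269) and the nitric oxide synthase Nos3 (0.41 at 10 days, adjusted p = 0.0380).

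Markers of cell types other than fibres also moved with training. In bulk muscle, more cells of a type and more RNA per cell cannot be told apart. The 9 fibroblast markers summed to between 190.2 and 443.6 in controls and to between 453.7 and 1413 in trained muscles, and 6 rose at 2 days and 9 at each later duration (8, 9, 8 and 6 with the block), led by Col1a1 (2.65 at 10 days, adjusted p = 1.16e-06), Col3a1, Lum and Gsn. The 10 macrophage and monocyte markers summed to between 18.8 and 43.6 in controls and to between 57.2 and 174.2 in trained muscles, with 8, 9, 10 and 10 rising (10, 9, 10 and 10 with the block). Lyz2 rose most, by 2.23 at 2 days (adjusted p = 6.33e-08), and with Cd68, C1qa and C1qb it was among the largest. Klf4, Klf5, Klf6 and Klf10 were higher in these same muscles, and the part of these cells in that was not tested.

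Endothelial markers took another course. Their sum was 55.2 to 76.1 in controls, 61.8 to 65.6 at 2 days, 72.0 to 116.8 at 10 days, 91.8 to 115.4 at 20 days and 70.8 to 97.5 at 30 days. Of 9 tested, 0, 4, 6 and 3 rose and 1 fell at 2 days (0, 4, 5 and 2, and 1, with the block), led by Cldn5 (0.97 at 20 days, adjusted p = 0.000966), Egfl7, Cdh5 and Tie1. The falls at 2 days were of different genes, named after their values were seen. Kdr fell against the pooled controls (adjusted p = 0.047) and did not pass with the block (adjusted p = 0.079). Flt1 fell with the block (adjusted p = 0.0459) and did not pass against the pooled controls (adjusted p = 0.098). The part of endothelial cells in the levels of Klf2 and Klf4 was not tested. Of 10 smooth muscle and pericyte markers 5, 5, 4 and 2 rose and 1 fell at 2 days, and with the block 2, 5, 4 and 2 rose and none fell. The largest changes against the pooled controls were in Cspg4, Des, Pdgfrb and Tagln. Des is also a fibre protein and made up most of the sum, and the call of Tagln at 2 days was lost with the block (adjusted p = 0.29).

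Of the 8 muscle fibre markers 3, 4, 4 and 4 fell and 3 rose, all at 10 days, led by the calcium buffer Pvalb (-3.23 at 20 days, adjusted p = 7.11e-09), then Pygm and Ckm, which fell, and Neb, which rose. With the block 2, 4, 2 and 2 fell and none rose, Neb at 10 days included (adjusted p = 0.0561).

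Of 4 satellite cell markers tested 2, 2, 1 and 1 rose and 1 fell at 2 days (Vcam1 and Myf5 up, Chodl down). With the block these counts were 1, 2, 1 and 2 rising and 1 falling, and Myf5 no longer passed at 2 days (adjusted p = 0.088) or 10 days (adjusted p = 0.0533). Vcam1 is also on the flow-response list above. Against the pooled controls it was the only satellite cell marker that rose at 20 and 30 days. Of 4 adipocyte markers tested, Cfd rose from 10 days on, and with the block it passed at 2, 20 and 30 days and not at 10 days (adjusted p = 0.14). Of 6 Schwann cell markers tested, Pmp22 rose at 2 days and Mbp fell at 30 days, and neither call held with the block (adjusted p = 0.0514 and 0.0729). With the block 0, 1, 0 and 1 Schwann cell markers rose and none fell. No red blood cell marker passed of 2 tested, in either fit. The 4 neutrophil and 2 lymphocyte markers in the table stayed below the filter, with sums of at most 2.85 and 0.592 in any muscle.

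Genes whose log2 values ran most like each factor over the 24 muscles were found among those with a mean of at least 5, as a description. All points share the split into trained and contralateral muscle, and 2 muscles come from each rat. For Klf6 they were Itga5, the fibronectin receptor chain (Pearson r = 0.94), Capn2 (0.94) and Klhl40 (0.93). For Klf5 they were Litaf (0.94), Hexa (0.93) and Vat1 (0.93), of which Hexa encodes a lysosomal enzyme. For Klf4 they were Slbp (0.91), Sdc4 (0.90) and Nr4a1 (0.87), an immediate early receptor. Klf10 ran most like Dnaja1 (0.77), Sdc4 (0.75) and Col4a1 (0.75), so that the syndecan Sdc4 stood on both lists.

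Klf9 ran most like Rbfox1, a splicing regulator of muscle and brain (0.85), Dcaf11 (0.81) and Smco1 (0.80). For Klf2 they were Gadd45g (0.84), Hyal2 (0.83) and Scamp3 (0.82). Among the 6 factors, Klf5 and Klf6 were the pair most alike (r = 0.84), Klf4 had r = 0.74 with Klf6, 0.70 with Klf10 and 0.67 with Klf5, and Klf9 ran opposite to Klf6 (r = -0.72) and Klf5 (r = -0.69). Klf2 had r between -0.02 and 0.31 with the other 5.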

How the data were processed

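Poly-A RNA of 24 tibialis anterior muscles was sequenced as read pairs, and the authors trimmed the reads and aligned them in Partek Flow with STAR 4.4.1d to Rnor_6.0 (rn6), with Ensembl 99_v2 transcripts. The authors deposited TPM-type values per transcript, scaled to 1 total per sample, and a gene-level signal table of 4635 genes, with 4 of the 6 members, which was used as an alternative. Another file holds the authors' own fold changes and p-values and was not used. No file used here holds counts, so depth per sample could not be read from them.

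Here transcript values were summed per gene, divided by median-of-ratios factors taken over 16230 transcripts that no sample lists at 0, and tested as log2(value + 1) with limma 3.58.1 in R 4.3.3, in 5 groups, over the 11196 genes that reached 1 scaled unit in 3 or more samples. Animals pair the muscles: deviations from group means correlated at 0.0277 to 0.343 within animals (median 0.174) and at a median of -0.100 between animals of the same day. Because deviations in each group of 3 sum to 0, the value between animals is tied to that within animals and is not a separate baseline. No 2 of the 24 samples were identical. Simulated data of 11196 genes had independent noise per muscle and no animal effect. There the pooled fit recovered 92.9% of genes changed by 1 on the log2 scale and the blocked fit 80.0%. On average 5.58% and 4.61% of their calls were false. Because the simulation lacked the pairing of the real muscles, it cannot say which fit serves them better. Named list genes are all other KLF and SP factors past the threshold and, of each other list, up to 4 with the largest log2 fold change, of which 2 are not reported here. The members and lists were chosen with earlier results of these data known. Sequences are from RefSeq (GRCr8), with 4 of the 6 members matched by symbol. Python 3.11.15 was used for the tables.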

Additional observations from a re-analysis of the deposited data

Results flagged for a closer look

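Effects that differed between durations by the test of the difference itself were found for Klf6 and Klf2. For Klf6 the trained muscles of 20 days differed from those of 2 days by -0.82 on the log2 scale, and those of 30 days by -0.73. For Klf2 the trained muscles of 30 days differed from those of 2 days by -1.45. These are the values against the other trained muscles, and none of the 3 passed with the animal as a block.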

How the results depend on the processing

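For the counts of the 6 factors called at each duration, the deposited gene-level table tested 4 of them and called 2, 3, 2 and 2 at 2, 10, 20 and 30 days, and a filter on a mean of at least 10 tested 3 and called 2, 3, 2 and 1. Against controls of the same day alone, the counts at 10 and 30 days were 3 and 2. The remaining alternatives gave counts close to those reported, and leaving out 1 muscle gave 3 to 4, 4 to 5, 3 to 4 and 3 to 4. With the replicate block (animal), 5, 4, 4 and 3 were called.

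Among trained groups, the 1 call at 20 against 2 days became 0 with the replicate block, the gene-level table, the mean of at least 10, the pseudocount of 0.1 and the transcript with the highest mean. The 2 calls at 30 against 2 days became 0 with the block and the mean of at least 10, and 1 with the gene-level table, the pseudocount of 0.1 and the highest transcript. At 30 against 10 days, 1 was called with the gene-level table, the intensity trend and the mean of at least 10, and 4 on the values as deposited. Leaving out 1 muscle gave 0 to 1 for 10 against 2 days, 0 to 1 for 20 against 2 days and 0 to 2 for 30 against 2 days. Beyond the smaller number of genes tested, the causes were not tested.

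For the results of single factors, the F test among control groups included, 829 of the values under an alternative kept their side of the threshold, 35 lost the call and 11 gained it. Of the fold changes called in either setting, 0 reversed direction. Changes of sign where neither setting made a call are counted among the 829. Klf2 at 20 days, for example, was -0.05 against the pooled controls and 0.13 with the animal as a block. The number of muscles per duration and the lack of read depth limit what these data can show.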
